A study of Mus musculus with 39 samples.

Results

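Gene expression was compared between the livers of old Prf1-/- mice treated with ABT-737 and those of old Prf1-/- mice treated with vehicle. The livers were chosen by their sample labels alone, and the comparison holds 6 of the 39 libraries of the series, 3 per group, labelled as replicates 3, 4 and 5 of each. All of these mice were C57BL/6 males that lacked perforin, and no wild-type liver entered the comparison, so the controls carry the same deletion. Treatment began at 18 months with ABT-737 at 25 mg/kg or with a DMSO-based vehicle, injected on 2 days in a row each month over 2 months, and the mice were killed at 20 months. The treatment field of ABT-737 replicates 4 and 5 reads ABT-738 and ABT-739, which was taken as a numbering slip for the same drug. The livers of 4 untreated Prf1-/- mice aged 3 months were measured alongside, and their levels are given for orientation without a test. The tissue was taken after perfusion and used whole, so each library mixes the RNA of all cells of a liver, in which fewer cells of a type and less RNA per cell cannot be told apart.

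ABT-737 is a small molecule that occupies the groove of the anti-apoptotic proteins BCL-2, BCL-XL and BCL-W, on which many senescent cells rely for survival. Perforin is the pore-forming protein with which cytotoxic lymphocytes and natural killer cells admit granzymes into their targets. Most RNA of a liver comes from hepatocytes, which make plasma proteins, bile acids and drug-metabolizing enzymes, while Kupffer cells, the resident macrophages of the sinusoids, clear particles and dying cells and present antigen. Under inflammatory cytokines hepatocytes switch on acute-phase genes such as the serum amyloids, and in male mice the pulsatile release of growth hormone maintains a set of male-biased genes, the major urinary proteins among them.

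Of 24537 transcripts in the table, 14330 had a count in at least 1 liver, and 5583 were abundant enough to be tested. The vehicle livers held 223957, 847846 and 891116 counts in replicates 3, 4 and 5, the ABT-737 livers 267345, 560554 and 426783, and the young livers 527995 to 672778. Levels are given as CPM, which are counts scaled to a common library total, on library sizes scaled by the TMM method, and a single count was worth 4.36 CPM in vehicle replicate 3 but 1.17 CPM in vehicle replicate 4. Prf1 itself, the deleted gene, had 1, 4 and 0 counts with vehicle, 3, 3 and 0 with ABT-737 and 0 or 1 in the young livers, too few for these reads to check the genotype, which rests on the labels. All 20 hepatocyte markers listed were tested and none passed in edgeR (2 at an unadjusted p under 0.05, and 1 adjusted call by DESeq2), and their summed level was 130700 to 156700 CPM with vehicle and 149600 to 163900 CPM with ABT-737. The vehicle livers were the least alike. Among the 2437 genes with a mean of at least 50 CPM, 306 spanned 4-fold or more between the 3 vehicle livers, against 37 between the 3 ABT-737 livers and 17 between the 4 young ones. Vehicle replicate 3, the shallowest library, stood apart, with a correlation of log2 levels of 0.757 and 0.765 with the other two vehicle livers, which correlated at 0.919 with each other, while the ABT-737 livers correlated at 0.934 to 0.945. The main genes are therefore given for every mouse and others as mean ± SD.

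In the livers of mice given ABT-737, genes of macrophages, antigen presentation, lymphocytes, the interferon response and the acute phase were among those that fell, and male-biased genes and genes of fatty acid oxidation among those that rose. In total 215 genes passed an adjusted p of 0.05 by the quasi-likelihood test of edgeR, adjusted over all genes tested by the method of Benjamini and Hochberg (3.85%), 56 of them higher (1.0%) and 159 lower (2.85%). The median log2 fold change over all genes tested was -0.03, and 52.9% of them had a lower value with ABT-737. The 3 treated and the 3 control mice did not overlap for 540 genes that were lower (9.67%) and 473 that were higher (8.47%), called or not. The call count rested on single libraries, since 529, 126 and 292 genes passed when vehicle replicate 3, 4 or 5 was left out, and 131, 44 and 164 when replicate 3, 4 or 5 of the treated mice was. In each of these fits more genes were lower than higher. Of 67 called genes chosen by rule for naming, 17, 43 and 16 were not called without replicate 3, 4 or 5 of the treated mice, 0, 15 and 8 without vehicle replicate 3, 4 or 5, and 6 by DESeq2. At an unadjusted p under 0.05 stood 899 of the 5583 genes, against which such counts in the lists can be read. Counts of calls in the lists can be read against the 1.0% called higher and the 2.85% called lower.

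**Figure D1:**
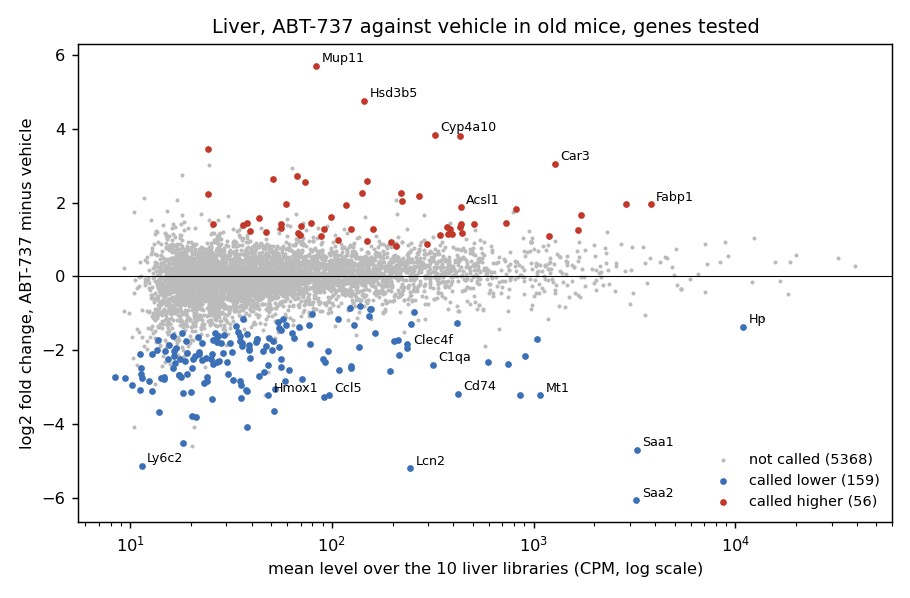
Each point is 1 of the 5583 genes tested, with its mean level over the 10 liver libraries in CPM on a logarithmic x axis and its log2 fold change, ABT-737 minus vehicle, on the y axis. The 159 genes called lower (blue) reach -6.07 for Saa2, the 56 called higher (red) reach 4.76 for Hsd3b5 below Mup11, whose fitted value rests on 2 control counts, and grey points did not pass.

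The macrophage genes fell together. Of 25 listed markers of Kupffer cells and other macrophages, 18 could be tested, and 16 of them fell and none rose, where 2.85% of all genes tested were called lower. Their median log2 fold change was -2.28 (-2.23 with genes near the detection floor set to their bound) against -0.03 over all genes tested. C1qa, which encodes a chain of the complement subunit C1q made by tissue macrophages (NM_007572, chromosome 4 from 136895916 to 136898844, mm10), was measured at 855, 713 and 713 CPM in vehicle replicates 3, 4 and 5 and at 131, 106 and 196 CPM in ABT-737 replicates 3, 4 and 5. All 3 treated mice thus lay below all 3 controls and close to the young livers (98.8 to 126 CPM), and the log2 fold change was -2.40 ± 0.26 SE, edgeR adjusted p = 0.00014. The companion chain C1qc changed in the same way, from 242 ± 23.8 to 42.2 ± 13.1 CPM (mean ± SD, n = 3 each).

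Clec4f, a lectin receptor that in mice marks Kupffer cells, had the steadiest controls of the list. It was read at 467, 475 and 470 CPM with vehicle and at 87.2, 108 and 168 CPM with ABT-737, a fitted difference of 3.84-fold (log2 fold change -1.94 ± 0.26 SE, edgeR adjusted p = 0.00058), and the young livers held 112 to 176 CPM. Csf1r, the receptor for the growth factor on which macrophages depend, gave 175, 144 and 279 CPM with vehicle and 35.7, 34.1 and 49.5 CPM with ABT-737. Cd5l, a protein secreted by macrophages, differed among the controls, with 65.5 CPM in vehicle replicate 3 but 275 and 393 CPM in the other two, and all treated livers lay below them at 39.8 to 55.5 CPM. The 2 tested markers that did not pass were Marco, a scavenger receptor, and Folr2, a folate receptor, and both overlapped between the groups. The classical markers Adgre1, Vsig4 and Timd4 had at most 10 counts in any liver and could not be tested. The summed level of all 25 markers was 2889 to 3605 CPM with vehicle, 512 to 1000 CPM with ABT-737 and 668 to 888 CPM in young livers. Blood transcripts moved the same way, with 12 listed genes summing to 3996 to 4622 CPM with vehicle and 1618 to 3622 CPM with ABT-737. Of the 7 tested, 6 were lower without overlap, against 9.67% of all genes tested. These 6 were globin entries in pairs with almost the same counts, so they are not 6 separate measurements. In vehicle replicate 3, for instance, Hbb-b1 had 223 counts and Hbb-bs 222. The part of blood transcripts in the macrophage result was not tested. Without ABT-737 replicate 4 only 7 of the markers passed, and without vehicle replicate 3 all 18 did.

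Genes of antigen presentation by MHC class II fell. Of 11 listed genes 6 were tested and all 6 passed, with a median log2 fold change of -2.68, and in all 6 the treated mice lay below the controls. Cd74, the invariant chain that escorts class II molecules to the compartment where peptides are loaded, was at 1754, 1020 and 660 CPM with vehicle and at 127, 85.4 and 166 CPM with ABT-737. The young livers stood at 83.3 to 128 CPM, and the fitted difference between the old groups was 9.06-fold (log2 fold change -3.18 ± 0.36 SE, edgeR adjusted p = 0.0002). H2-Aa, the alpha chain of the class II molecule I-A, gave 2370, 2271 and 958 CPM with vehicle and 361, 237 and 490 CPM with ABT-737. In these genes vehicle replicate 3 was not the low control but the highest one. H2-DMa and H2-DMb1, the chains of the editor that exchanges peptides in class II molecules, were also highest in vehicle replicate 3, at 262 and 140 CPM, and fell to at most 34.7 and 19.8 CPM in treated mice. Of the 6 genes, 4 passed without ABT-737 replicate 4 and all 6 without any other old liver.

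Lymphocyte transcripts were sparse, and most of their counts came from the control livers. Of 30 listed markers of T, NKT and NK cells 4 were abundant enough to test, and 3 fell. Ccl5, a chemokine stored by memory T cells and NK cells, had 218, 352 and 275 CPM with vehicle and 31.7, 11.4 and 52.0 CPM with ABT-737 (log2 fold change -3.22 ± 0.38 SE, edgeR adjusted p = 0.00021). ABT-737 replicate 4 lay among the young livers, which held 5.81 to 11.5 CPM, and the other two lay above them. Thy1, a surface glycoprotein of T cells, was at 43.6, 57.4 and 56.5 CPM with vehicle and at 0, 3.79 and 12.4 CPM with ABT-737. Nkg7, a protein of cytotoxic granules, fell from 37.8 ± 10.7 to 10.7 ± 6.21 CPM, a call that DESeq2 did not make (adjusted p = 0.0525) and that leaving out any old liver but vehicle replicate 3 ended. Without ABT-737 replicate 4 neither Thy1 nor Nkg7 passed (adjusted p = 0.0845 and 0.252 from edgeR), which left 1 of the 3 calls. Zap70, a kinase of the T cell receptor, was at 47.7 ± 13.2 and 54.5 ± 8.94 CPM and did not pass. The T cell receptor subunit Cd3e, which could not be tested, had 2, 10 and 7 counts with vehicle and no count with ABT-737. No B cell or plasma cell marker could be tested, and their summed level of 122, 227 and 33.4 CPM with vehicle overlapped with 19.0 to 47.6 CPM after treatment. Of the neutrophil and monocyte list 2 genes were tested and both fell, Ly6c2 and Hp, the second of which is chiefly a product of hepatocytes. Ly6c2, a marker of inflammatory monocytes, had 5, 31 and 36 counts with vehicle and 0, 1 and 0 with ABT-737, a depth-corrected ratio of summed counts, ABT-737 over vehicle, of 0.0219 (95% exact interval 0.000546 to 0.126, counting error only; adjusted p = 0.0015 from edgeR).

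**Figure D2:**
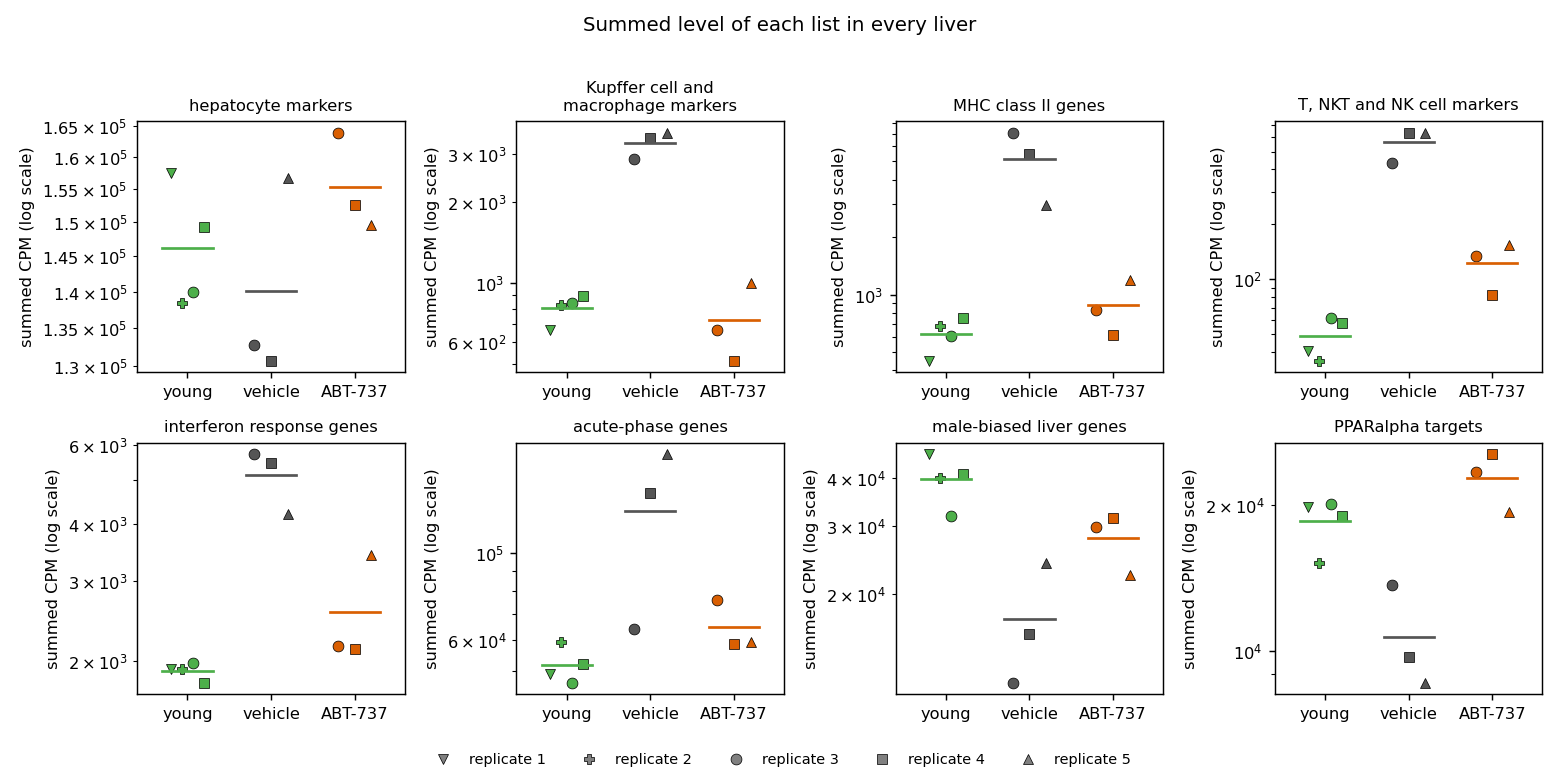
Summed level in CPM (logarithmic y axis) of the genes of 8 lists in each liver, with 1 symbol per mouse, a shape per replicate number and a line at the group mean, for 4 young, 3 vehicle and 3 ABT-737 livers. Macrophage, MHC class II, T and NK cell and interferon genes are lower in all 3 treated livers than in all 3 controls, acute-phase genes overlap because vehicle replicate 3 lies among the treated livers, and hepatocyte markers overlap.

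The interferon response fell in the same livers. Of 56 listed interferon-stimulated genes 26 were tested, and 14 fell and none rose (median log2 fold change -1.83). Irgm2 and Igtp, regulatory members of the immunity-related GTPases that defend cells against intracellular parasites, fell from 60.4 ± 13.2 to 12.1 ± 2.69 CPM and from 303 ± 121 to 79.3 ± 45.9 CPM. Irf7, the transcription factor that amplifies type I interferon, was at 524, 712 and 325 CPM with vehicle and at 103, 100 and 230 CPM with ABT-737, so that the groups did not overlap (log2 fold change -1.84 ± 0.35 SE, edgeR adjusted p = 0.0062). Cxcl9 and Cxcl10, chemokines that recruit T cells, stood at 45.0 to 144 CPM and 27.0 to 39.3 CPM with vehicle and at 13.3 to 32.2 CPM and 2.48 to 5.69 CPM with ABT-737. Of 12 tested chemokines, cytokines and their receptors 5 fell and none rose, the inhibitor Il18bp, Tgfb1 and Ccl5 beside Cxcl9 and Cxcl10. This count became 12 when vehicle replicate 3 was left out and 1 when treated replicate 4 was. Cxcl10 is also counted among the 14 interferon genes, and Ccl5 among the T, NKT and NK cell markers above. Iigp1, a further immunity-related GTPase, was at 26.2, 34.0 and 84.8 CPM with vehicle and at 11.9, 13.3 and 7.43 CPM with ABT-737, and both groups lay below the young livers at 87.1 to 109 CPM. Of 16 tested genes of the MHC class I pathway 5 also fell, the peptide transporter subunits Tap1 and Tap2, the immunoproteasome subunits Psmb8 and Psmb10 and the class I gene H2-T22. The light chain B2m, at 375, 2126 and 2282 CPM with vehicle and 1395, 1220 and 1114 CPM with ABT-737, did not pass, and the count of 5 became 2 and 1 when replicate 3 or 4 of the treated mice was left out. Macrophage markers moved with these genes as given above, and their part in the interferon result was not tested. The number that passed in edgeR was 8 and 0 when replicate 3 or 4 of the treated mice was left out and 19 without vehicle replicate 3.

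Because these genes moved together, the 250 bases before their annotated starts were searched on both strands for the letters of the interferon-stimulated response element (GAAA, any 2 bases, GAAA) and of the gamma-activated sequence (TTCNNNGAA), with N for any base. RefSeq promoters on GRCm38.p6 were matched for 10 of the 14 fallen interferon genes, and 5 of the 10 held the first motif and 5 the second. Among 8 matched interferon genes that were tested and not called, 3 held the first and 2 the second. The first motif stood in 3.06% of the 27025 promoters of the table and in 2.53% of those matched to genes tested, and the second in 7.11% and 5.71%. Of the 159 genes called lower 114 were matched, and 8.77% of them held the first motif and 12.3% the second, against 2.70% and 10.8% of the 37 matched genes called higher. These matches describe letters and are not shown to be bound. The 5 stretches of 60 bases with the first motif are printed in the direction of the gene, with the motif on either strand in capitals.

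Irgm2 (chr11:58214888-58214947, plus strand): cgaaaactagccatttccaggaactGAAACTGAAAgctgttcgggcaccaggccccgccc

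Igtp (chr11:58199496-58199555, plus strand): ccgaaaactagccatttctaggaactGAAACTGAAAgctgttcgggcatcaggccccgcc

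Gbp7 (chr3:142530258-142530317, plus strand): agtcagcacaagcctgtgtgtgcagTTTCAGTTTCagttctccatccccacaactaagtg

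Isg15 (chr4:156200850-156200909, minus strand): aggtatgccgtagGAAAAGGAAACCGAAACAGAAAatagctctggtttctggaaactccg

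Cxcl10 (chr5:92349068-92349127, minus strand): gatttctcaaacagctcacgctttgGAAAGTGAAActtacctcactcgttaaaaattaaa

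The neighbouring GTPase genes Irgm2 and Igtp carried the same motif letters 55 and 25 bases before their starts. Isg15, a ubiquitin-like protein, held 3 overlapping copies and went from 78.5, 102 and 32.1 CPM with vehicle to 15.8, 11.4 and 34.7 CPM with ABT-737, with overlapping groups. Gbp7, a guanylate-binding protein, was at 336, 64.4 and 71.9 CPM and then at 23.8, 7.59 and 42.1 CPM.

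Acute-phase genes fell, but from controls that differed by more than an order of magnitude. Of 39 listed genes 35 were tested, and 13 fell and none rose, with a median log2 fold change of -1.03. Saa2, a serum amyloid released into plasma in inflammation, was measured at 515, 6992 and 23930 CPM in vehicle replicates 3, 4 and 5 and at 321, 62.6 and 104 CPM with ABT-737. Lcn2, an iron-scavenging lipocalin, followed the same order in the controls with 82.9, 961 and 1298 CPM and reached 71.3, 7.59 and 2.48 CPM in treated mice. In both genes vehicle replicate 3 lay just above the highest treated liver, ABT-737 replicate 3, and the young mice ranged from 25.2 to 298 CPM for Saa2 and from 0 to 13.4 CPM for Lcn2. The fitted log2 fold changes were -6.07 for Saa2 (SE 1.17) and -5.19 for Lcn2 (SE 0.95), with adjusted p = 0.007 and 0.0051 from edgeR. Both calls ended in edgeR when ABT-737 replicate 4 was left out (adjusted p = 0.0655 for Saa2 and 0.0586 for Lcn2), and Lcn2 did not pass by DESeq2 (adjusted p = 0.0864). Saa1 and Saa2 are close paralogs whose reads the counting could have split.

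The plasma proteins of Hp and Orm2 had transcripts that differed less between the control livers than Saa2 and Lcn2. Hp, which encodes the haemoglobin scavenger haptoglobin, was at 16310, 20470 and 28730 CPM with vehicle and at 11000, 6948 and 7523 CPM with ABT-737 (log2 fold change -1.36 ± 0.30 SE, edgeR adjusted p = 0.018, but 0.136 and 0.0857 without replicate 4 or 5 of the treated mice). Orm2, an orosomucoid that binds lipophilic drugs, fell from 2179 ± 1354 to 496 ± 63.0 CPM. The metallothioneins Mt1 and Mt2, which bind zinc and are induced by metals, glucocorticoids and inflammation, overlapped between the groups because vehicle replicate 3 lay among the treated livers. For Mt1 the values were 388, 6951 and 2160 CPM with vehicle and 602, 321 and 111 CPM with ABT-737, and the call (adjusted p = 0.032 from edgeR) did not hold in 5 of 18 alternatives, among them the fits that left out replicate 4 of either group or ABT-737 replicate 5. The number of acute-phase genes that fell was 22 and 8 when vehicle replicate 3 or 4 was left out, and 1 and 4 when replicate 4 or 5 of the treated mice was. Complement and coagulation factors, also made by hepatocytes, had a median of 0.00 and 1 call of 31 tested. This count is near the 2.85% of all genes tested that were called lower. The call was the complement component C2, which fell from 243 ± 71.4 to 113 ± 17.0 CPM. This call was lost without replicate 3, 4 or 5 of the treated mice (adjusted p = 0.139, 0.109 and 0.107 for C2 in edgeR) or vehicle replicate 5 (0.0569), and 4 genes of the list fell without vehicle replicate 3.

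Hmox1, the haem oxygenase that macrophages and stressed cells use to break down haem, was at 82.9, 146 and 143 CPM with vehicle and at 19.8, 13.3 and 9.90 CPM with ABT-737. The groups were well apart, treated livers lay within the young range of 8.94 to 26.9 CPM, and the log2 fold change was -3.22 ± 0.40 SE, edgeR adjusted p = 0.00028. Among 26 tested genes of the antioxidant, metal and iron list, 3 passed, which were Hmox1, Mt1 and Mt2, where 2.85% of all genes tested were called lower. Mt1 and Mt2 are also counted among the acute-phase genes that fell. Haemoglobin transcripts, which report blood left in the tissue, were lower with ABT-737 in value without passing. Hbb-b1, for instance, was at 973, 887 and 962 CPM with vehicle against 828, 326 and 498 CPM. None of 7 tested blood genes was called by edgeR or DESeq2 (4 lower and 1 higher at an unadjusted p under 0.05). The 1 with a higher value was Alas2, which before scaling had 60, 46 and 75 counts with vehicle and 53, 147 and 93 with ABT-737.

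**Figure D3:**
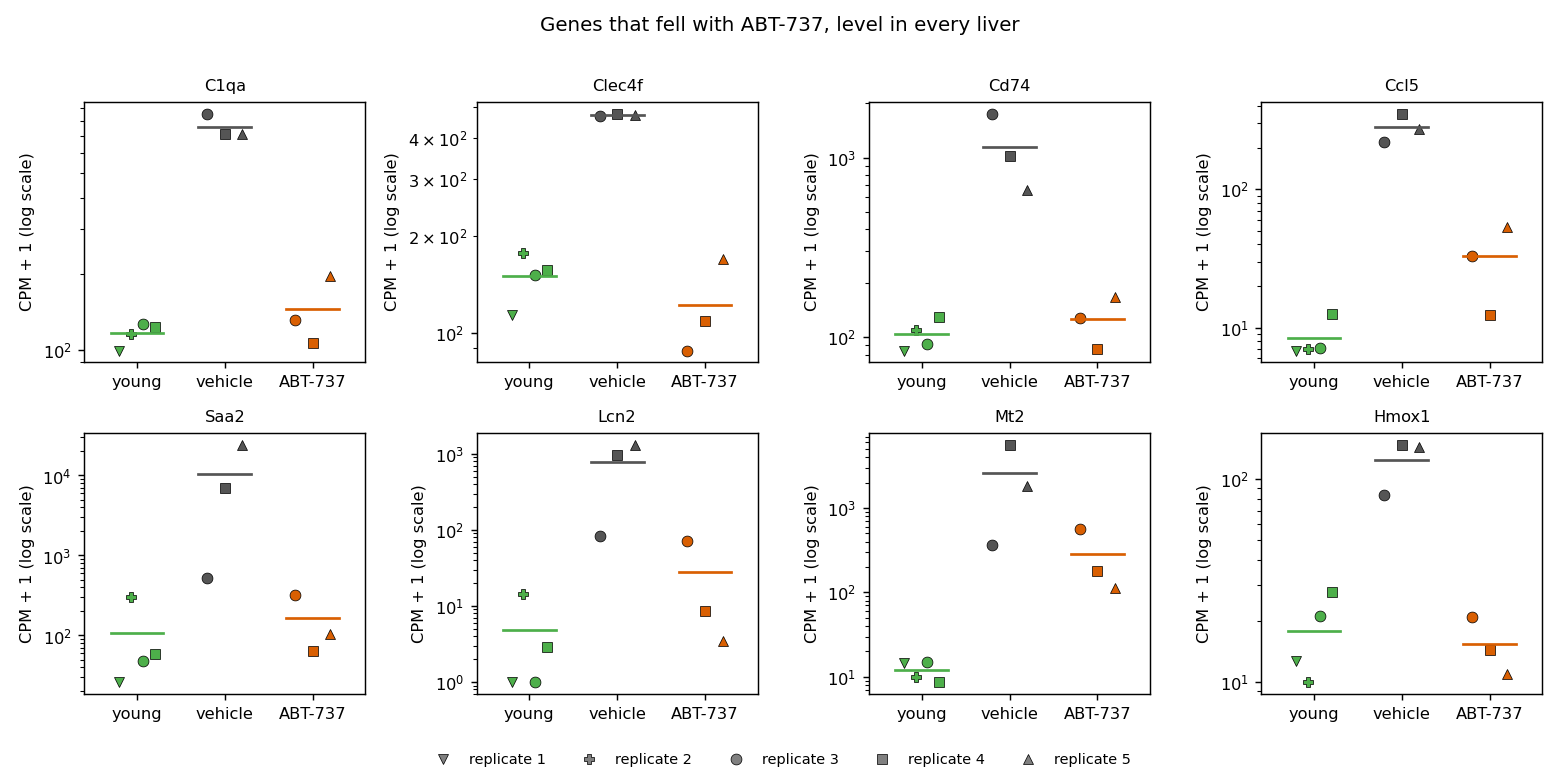
Level in CPM plus 1 (logarithmic y axis) of 8 genes that fell, with 1 symbol per liver, a shape per replicate number and a line at the group mean. C1qa, Clec4f, Cd74, Ccl5 and Hmox1 separate the 3 treated from the 3 control livers, Saa2 and Lcn2 do so narrowly because of vehicle replicate 3 at 515 and 82.9 CPM, and Mt2 overlaps.

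The summed levels of other cell types of the liver were lower as well, without overlap between the old groups, at 401 to 506 CPM with vehicle and 262 to 317 CPM with ABT-737 for endothelial genes, 432 to 1154 and 332 to 353 CPM for stellate cell and matrix genes, and 632 to 932 and 389 to 491 CPM for bile duct genes. The bile duct sum was mostly Krt18, at 628, 557 and 428 CPM with vehicle and 384, 262 and 359 CPM with ABT-737. Krt7 and Krt19 of the same list had at most 1 count in any old liver, so this sum does not report bile duct cells alone. Few single genes passed. Among 7 endothelial markers tested Pecam1, an adhesion molecule of endothelium that leukocytes also carry, fell from 44.4 ± 12.3 to 13.97 ± 1.81 CPM, whereas the sinusoidal receptors Stab2 and Clec4g did not pass. Pecam1 was not called by DESeq2 (adjusted p = 0.0696) nor, in edgeR, without replicate 3, 4 or 5 of the treated mice (adjusted p = 0.118, 0.182 and 0.11) or vehicle replicate 4 (0.157). Among 9 tested genes of stellate cells and matrix the cytokine Tgfb1, also counted among the cytokines above, fell from 38.3 ± 4.71 to 7.70 ± 4.05 CPM. The intermediate filament Vim fell as well, and was read at 17.5, 183 and 100 CPM with vehicle and at 11.9, 19.0 and 22.3 CPM with ABT-737. The part of the fallen macrophage markers in these 2 calls was not tested. All 9 stellate and matrix genes had a lower value with ABT-737, as did 52.9% of all genes tested, and 7 of the 9 stood at an unadjusted p under 0.05. Dcn and Bgn, matrix proteoglycans, did not pass. The 2 calls became 0 without ABT-737 replicate 4, 1 without replicate 3 of the treated mice or vehicle replicate 4, and 4 without vehicle replicate 3. No bile duct marker passed among 4 tested by edgeR or DESeq2 (3 at an unadjusted p under 0.05), and Spp1, which encodes osteopontin, was at 0, 202.5 and 62.9 CPM with vehicle and at 7.93, 20.9 and 17.3 CPM with ABT-737.

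Of the 159 genes that fell, 94 belonged to none of the lists. The most certain was Sirpa, the receptor by which macrophages read the CD47 signal on other cells, at 100, 97.2 and 89.9 CPM with vehicle and 15.8, 5.69 and 9.90 CPM with ABT-737 (log2 fold change -3.30 ± 0.35 SE, edgeR adjusted p = 0.00014). Basp1, a membrane protein best known from neurons, fell from 54.1 ± 22.8 to 3.60 ± 1.56 CPM, and Pcolce, an enhancer of procollagen processing, from 47.9 ± 32.0 to 3.41 ± 0.814 CPM. Tff3, a trefoil peptide, was at 26.2, 86.6 and 247 CPM with vehicle and at 7.59 to 15.8 CPM with ABT-737. Hk3, the hexokinase of myeloid cells, had 2 counts in all treated livers together and a depth-corrected ratio of summed counts of 0.0443 (95% exact interval 0.00527 to 0.166). Chosen after their values were seen, Coro1a, Rac2 and Cd52 are further leukocyte genes, and fell from 102 ± 23.3 to 11.7 ± 1.70 CPM, from 98.3 ± 37.0 to 12.1 ± 2.69 CPM and from 261 ± 164 to 26.4 ± 14.6 CPM.

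A few genes fell away from the young level. Serinc1, a serine incorporator of membranes, was at 8.73, 43.3 and 32.1 CPM with vehicle, at 3.96, 0 and 2.48 CPM with ABT-737 and at 52.3 to 104 CPM in young livers. Dld, a shared subunit of mitochondrial dehydrogenases, was at 8.73 to 22.2 CPM with vehicle, at most 3.96 CPM with ABT-737 and 29.0 to 65.2 CPM in the young. Both rest on 2 counts summed over the treated livers, with ratios of 0.0492 (95% exact interval 0.00583 to 0.185) and 0.0874 (0.0102 to 0.340). Without ABT-737 replicate 4 neither Serinc1 nor Dld passed (adjusted p = 0.0822 and 0.138 from edgeR), and Dld did not pass by DESeq2 (0.0513) or without ABT-737 replicate 5 (0.0957) or vehicle replicate 4 (0.098). For 86 of the 159 genes that fell the young mean lay beyond the ABT-737 mean, for 70 it lay between the old groups and for 3 on the other side of the vehicle mean.

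Male-biased genes rose. Of 34 listed genes that depend on male growth hormone secretion 22 were tested, and 9 rose and none fell (median log2 fold change 1.35), where 1.0% of all genes tested were called higher. Mup11, a major urinary protein that carries pheromones (NM_001164526, chromosome 4 from 60658466 to 60662395), was nearly absent from controls, with 0, 1.17 and 1.28 CPM, and reached 91.2, 72.1 and 44.6 CPM with ABT-737. The ratio of summed counts was 62.1 (95% exact interval 16.6 to 522), and young livers held 89.1 to 215 CPM (adjusted p = 0.00026 from edgeR). Mup11 lies across the annotated gene Gm2083 in the same orientation, and its family holds very similar copies, so its reads could have been split between copies. Gm2083 was at 61.1, 3.51 and 21.8 CPM with vehicle and at 162.5, 125 and 99.0 CPM with ABT-737 (adjusted p = 0.024 from edgeR and 0.0997 from DESeq2). The near absence from controls therefore holds for the reads assigned to Mup11 and not for the locus. Hsd3b5, a steroid-reducing enzyme of the male liver, was at 13.1, 0 and 1.28 CPM with vehicle, at 19.8, 98.6 and 69.3 CPM with ABT-737 and at 284 to 352 CPM in the young. The treated livers were above the controls without reaching the young range, as for Nudt7, a peroxisomal hydrolase of coenzyme A, which rose from 114 ± 74.1 to 421 ± 48.3 CPM against 1634 ± 270 CPM in young mice.

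Other members of the list rose to levels within or nearer to the young range. Cyp4a12a, an androgen-dependent fatty acid hydroxylase, was at 48.0, 31.6 and 74.5 CPM with vehicle, 170, 349 and 220 CPM with ABT-737 and 210 to 436 CPM in the young. Mup3 rose from 1034 ± 479 to 4023 ± 1441 CPM, and Slco1a1, a bile acid and steroid transporter, from 54.2 ± 46.7 to 188 ± 31.0 CPM. Igf1, the hormone that the liver releases under growth hormone, was at 1062 ± 283 and 1216 ± 42.2 CPM and did not pass, nor did the receptor Ghr. Of the female-biased list 3 genes were tested and 1 fell, the steroid hydroxylase Cyp17a1, at 4.36, 76.1 and 144 CPM with vehicle and 7.93, 11.4 and 19.8 CPM with ABT-737. The groups of Cyp17a1 overlapped because of vehicle replicate 3, and it was not called by DESeq2 (adjusted p = 0.171) nor, in edgeR, without any 1 of the other 5 old livers (adjusted p from 0.0622 to 0.19). Of the male-biased genes 13 rose when vehicle replicate 3 was left out and 5 without its replicate 4, and 5 and 4 when replicate 3 or 4 of the treated mice was.

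Genes of fatty acid oxidation under PPARalpha, the receptor that senses fatty acids in the fasting liver, rose as well. Of 50 listed genes 42 were tested, 11 rose and none fell, and the median log2 fold change was 0.63. Cyp4a10, a fatty acid omega-hydroxylase and a common marker of PPARalpha activity, was measured at 21.8, 55.0 and 39.8 CPM with vehicle and at 598, 948 and 252 CPM with ABT-737 (log2 fold change 3.83 ± 0.51 SE, edgeR adjusted p = 0.00048). The lowest treated liver was above the highest control, and the young livers held 224 to 588 CPM. Acsl1, which activates long-chain fatty acids, was at 127, 185 and 238 CPM with vehicle and at 749, 848 and 451 CPM with ABT-737 (log2 fold change 1.87 ± 0.28 SE, edgeR adjusted p = 0.0014).

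Further steps of the pathway shared this direction. Acot1, a cytosolic thioesterase of acyl-CoA, rose from 22.3 ± 7.65 to 132 ± 93.0 CPM, and Hsd17b4, the bifunctional enzyme of peroxisomal oxidation, from 205 ± 23.2 to 450 ± 29.6 CPM. The receptor Ppara was at 170, 164 and 153 CPM with vehicle and 325, 294 and 238 CPM with ABT-737, and passed narrowly against vehicle (adjusted p = 0.049 from edgeR). Young livers held 159 to 209 CPM, so treated livers lay above both other groups, though the difference from the young was not tested. Fabp1, the fatty acid-binding protein of hepatocytes, was at 2994, 608 and 791 CPM with vehicle and at 6301, 5622 and 4983 CPM with ABT-737. Cidec, a lipid droplet protein, was at 26.2, 15.2 and 3.85 CPM with vehicle and at 99.1, 41.7 and 47.0 CPM with ABT-737, far above the young level of 1.49 to 4.61 CPM. In edgeR Cidec did not pass without ABT-737 replicate 3 or 4 (adjusted p = 0.0959 and 0.0502) or vehicle replicate 5 (0.0506), nor with only the old livers in the fit (0.087). Cpt1a, the gate of mitochondrial oxidation, was at 8.73, 159 and 114 CPM with vehicle and at 107, 102 and 84.2 CPM with ABT-737 and did not pass. Of the pathway 19, 6 and 6 genes rose when vehicle replicate 3, 4 or 5 was left out, and 5, 2 and 7 when replicate 3, 4 or 5 of the treated mice was.

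**Figure D4:**
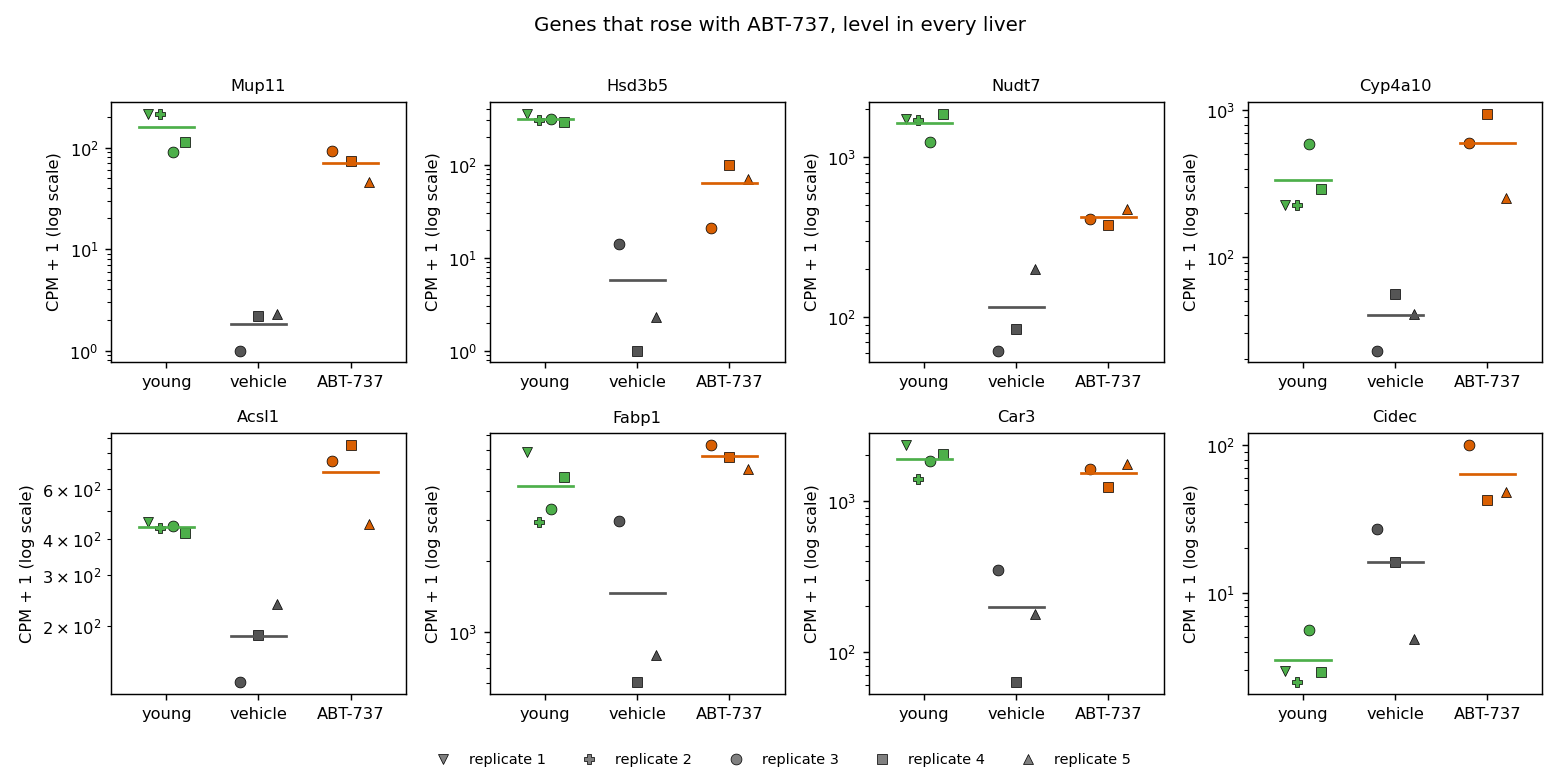
Level in CPM plus 1 (logarithmic y axis) of 8 genes that rose, with 1 symbol per liver, a shape per replicate number and a line at the group mean. In all 8 the 3 treated livers lie above the 3 controls, Hsd3b5 and Nudt7 stay below the 4 young livers, and Cidec lies above them.

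Among genes outside the lists, Car3, a carbonic anhydrase abundant in male liver, was at 349, 62.0 and 176 CPM with vehicle and at 1625, 1233 and 1765 CPM with ABT-737. The young livers stood at 1396 to 2339 CPM, and the log2 fold change was 3.04 ± 0.45 SE, edgeR adjusted p = 0.0013. Serpina4-ps1, a serpin pseudogene, was at 100, 3.51 and 16.7 CPM with vehicle and at 531, 378 and 267 CPM with ABT-737. Onecut1, a transcription factor of hepatocytes, rose from 13.3 ± 7.83 to 70.3 ± 24.6 CPM, and Mcm10, a factor of DNA replication, from 31.1 ± 12.5 to 134 ± 39.6 CPM. For 35 of the 56 genes that rose the young mean lay between the old groups, for 19 it lay beyond the ABT-737 mean, and for 2 it lay below the vehicle mean.

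Drug-metabolizing enzymes rose in part. Of 57 tested genes 7 rose and none fell, with a median log2 fold change of 0.52, where 1.0% of all genes tested were called higher. In all treated livers 23 were higher than in all control livers, against 8.47% of all genes tested. Ephx1, the microsomal epoxide hydrolase, was at 223, 330 and 175 CPM with vehicle and at 559, 537 and 574 CPM with ABT-737. Ces1f, a carboxylesterase that handles lipids and drugs, rose from 223 ± 103 to 604 ± 44.1 CPM, and Ces3a from 869 ± 434 to 2063 ± 297 CPM. The number of these enzymes that rose was 18, 1 and 17 when vehicle replicate 3, 4 or 5 was left out, and in edgeR 0, 0 and 1 when replicate 3, 4 or 5 of the treated mice was. Of 24 tested genes of bile acid handling 2 rose, Slco1a1 and the sterol 12-alpha-hydroxylase Cyp8b1, the latter from 262 ± 110 to 649 ± 96.3 CPM, above the young range of 170 to 345 CPM. These 2 calls became 0 without ABT-737 replicate 3, 1 without replicate 4 of either group or replicate 5 of the treated mice, and 4 without vehicle replicate 5. The rate-limiting Cyp7a1 was at 26.2, 18.7 and 45.0 CPM with vehicle and 111, 9.48 and 96.5 CPM with ABT-737 and did not pass. Of 36 tested genes of fat and sterol synthesis 1 rose, the phosphatidate phosphatase Lpin1, at 105, 163 and 170 CPM with vehicle and at 222, 616 and 354 CPM with ABT-737. Lpin1 did not pass without replicate 4 or 5 of the treated mice (adjusted p = 0.25 and 0.061 from edgeR) or vehicle replicate 4 (0.0828), and 3 genes of the list rose without vehicle replicate 3 or 5.

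The family that ABT-737 binds did not pass at the transcript level. Of 11 tested BCL-2 family genes none was called by edgeR or DESeq2 (2 at an unadjusted p under 0.05). Bcl2 was at 26.2, 32.8 and 47.5 CPM with vehicle and at 3.96, 20.9 and 9.90 CPM with ABT-737, lower in all 3 treated livers without passing (adjusted p = 0.182 from edgeR). Bcl2l1, which encodes BCL-XL, was at 140, 165 and 87.3 CPM and then at 115, 118 and 84.2 CPM. Mcl1, an anti-apoptotic relative that ABT-737 binds poorly, was at 103 ± 11.6 and 86.0 ± 20.1 CPM, and Bcl2l2, which encodes BCL-W, had at most 12 counts in any liver.

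Among 9 tested senescence genes none was called by edgeR or DESeq2 (2 at an unadjusted p under 0.05). Cdkn1a, which encodes the cell cycle inhibitor p21, was at 419, 453 and 66.8 CPM with vehicle and at 250, 478 and 297 CPM with ABT-737, and the direction of its value turned when vehicle replicate 5 or treated replicate 4 was left out. Both old groups stood far above the young livers, which held 3.84 to 7.45 CPM. Cdkn2a, which encodes p16, had 0, 2 and 2 counts with vehicle and no count with ABT-737 or in the young, too few to compare. Dbp, an output gene of the clock, was at 8.71 ± 2.85 and 7.78 ± 3.31 CPM in the old groups and at 213 to 326 CPM in the young, and times of death were not compared here. None of 12 tested clock genes, 30 of glucose metabolism, 3 of proliferation or 23 of apolipoproteins was called by edgeR or DESeq2 (1, 11, 1 and 3 at an unadjusted p under 0.05). Of 28 stress genes edgeR called none and DESeq2 1 (6 at an unadjusted p under 0.05). Of these, Pck1, the gate of glucose synthesis, was at 4961 ± 2754 and 9159 ± 3039 CPM, and Apoe, a carrier of plasma lipid, at 38580 ± 15590 and 46650 ± 1428 CPM. Of 3 tested pancreas genes none was called by either tool (1 at an unadjusted p under 0.05), and the fat cell list could not be read, since Pck1, which hepatocytes express, was its only tested gene.

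The spread of the control livers touched abundant genes. The 8 genes with a mean of at least 50 CPM that varied most among the vehicle livers, Cyp2c37, Cyp2c50, Mcfd2, Clpx, Bnip3, Acsl5, Hfe and Tmbim4, all had no count in vehicle replicate 3. Cyp2c37, a cytochrome of lipid and drug oxidation, was at 0, 16.4 and 143 CPM with vehicle and at 202, 235 and 124 CPM with ABT-737. Hfe, which restrains iron uptake, was at 0, 65.6 and 55.2 CPM with vehicle and at 63.4, 60.7 and 49.5 CPM with ABT-737. A level of 0 in this library allows up to 13.1 CPM by a floor of 3 counts (counting error only), which lies below the other vehicle values of the 8 genes except that of Cyp2c50 in replicate 4, at 12.9 CPM. None of the 8 was called. Alb, which encodes albumin, was also low in vehicle replicate 3, at 8907 CPM against 33480 and 31520 CPM in the other two.

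The same drug and vehicle were given to old mice whose kidney and lung were sequenced, 3 per group, and the labels do not say whether same-numbered tissues came from one mouse. The test of the difference between the effects in liver and kidney was passed by 25 of 10416 genes (0.240%), and that between liver and lung by 5 of 11067 (0.0452%). Cyp4a10 differed by 3.97 on the log2 scale (SE 0.61, adjusted p = 0.0021 from edgeR), with kidney levels of 473, 620 and 844 CPM with vehicle and 403, 929 and 490 CPM with ABT-737. Car3 and Acsl1 rose more in liver than in kidney by 3.41 and 2.16, while Hmox1, Sirpa and the NADPH oxidase subunit Cyba fell more in liver, by -3.13, -2.80 and -2.65. Hmox1 in kidney was at 69.9, 51.3 and 48.8 CPM with vehicle and at 40.6, 61.9 and 62.8 CPM with ABT-737, so that the groups overlapped there.

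Between liver and lung the effect on Mcm10 differed by 3.30 (adjusted p = 0.0377 from edgeR), with lung levels of at most 7.86 CPM. Pcolce, Basp1 and the integrin subunit Itga9 differed by -4.52, -3.95 and -2.83, and in lung Pcolce was at 150, 140 and 82.3 CPM with vehicle and at 234, 217 and 140 CPM with ABT-737. For Cd74 the differences of liver from kidney and from lung did not pass (adjusted p = 0.29 and 0.0738 from edgeR), and kidney Cd74 was at 2514, 1576 and 1622 CPM with vehicle and at 596, 380 and 596.5 CPM with ABT-737. The liver and kidney count was 100, 9 and 52 when the liver of vehicle replicate 3, 4 or 5 was left out, and 11, 3 and 10 when that of replicate 3, 4 or 5 of the treated mice was. The liver and lung count was 27 without vehicle replicate 3 and 0 in edgeR without replicate 4 of either group or without replicate 5 of the treated mice.

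**Figure D5:**
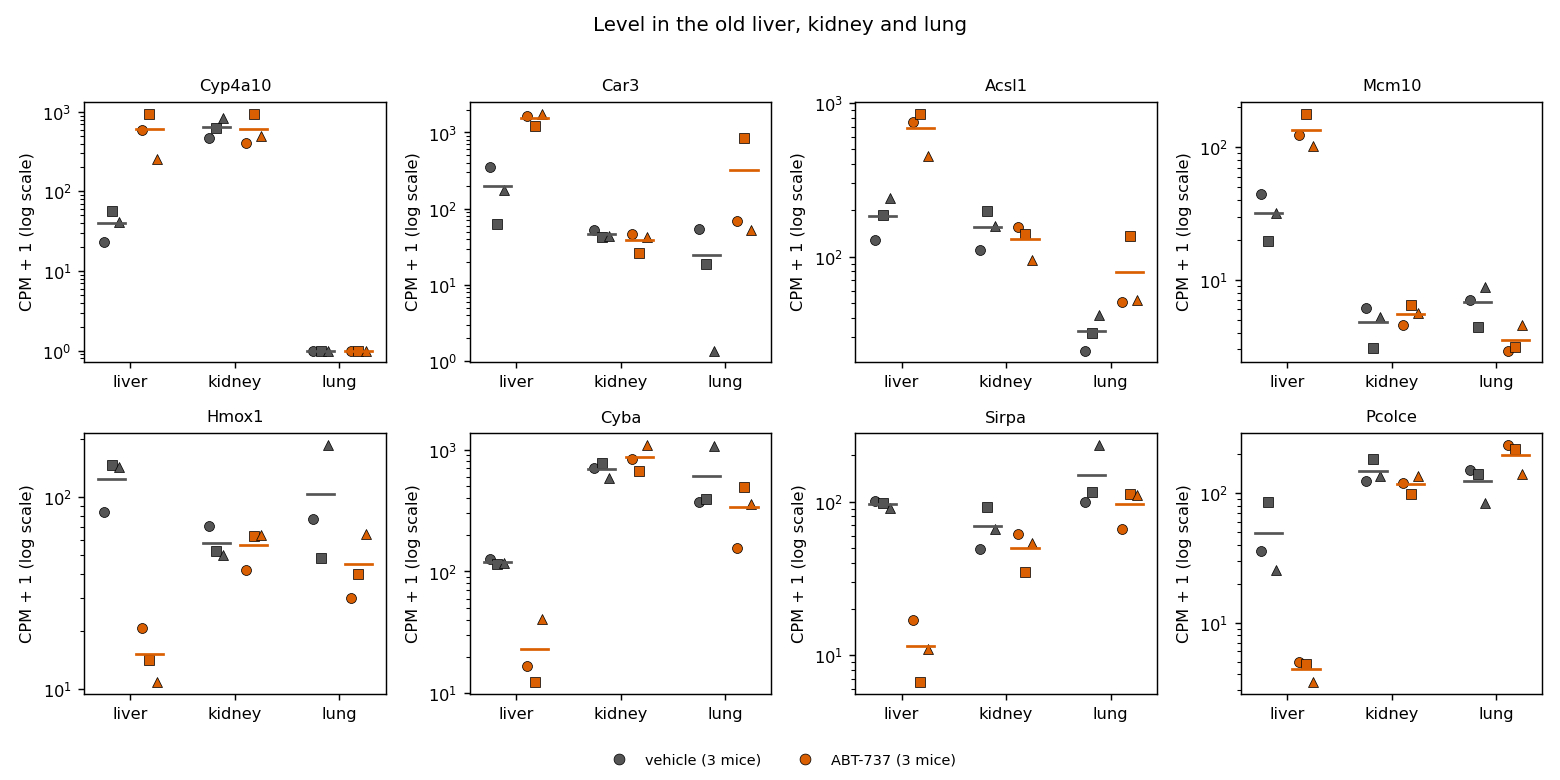
Level in CPM plus 1 (logarithmic y axis) of 8 genes in the liver, kidney and lung of old mice given vehicle or ABT-737, with circle, square and triangle for replicates 3, 4 and 5 and lines at the group means. Cyp4a10, Car3 and Acsl1 are higher in the treated livers than in control livers and overlap between the groups in kidney, and Hmox1 and Sirpa are lower in treated livers and overlap in kidney.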

How the data were processed

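RNA was extracted from perfused liver, and 50 ng of it went into 3′ end libraries by MARS-seq adapted to bulk RNA, which were sequenced on a NextSeq-500. The authors deposited counts per RefSeq transcript, not normalized, and the submitters' processing notes name bcl2fastq, HISAT 0.1.5, HOMER and mm10. Collapsing of molecular identifiers and use of strand are not given in the sources used here, so intervals cover counting error only. Groups came from the labels, and p-values measure the spread between mice. Counts of the 10 liver libraries were fitted in edgeR 4.0.16 (R 4.3.3; TMM scaling, filterByExpr, quasi-likelihood test, Benjamini-Hochberg threshold 0.05). The test was run on simulated data of the same design, but with the same spread in all groups, unlike the real vehicle livers. Small changes were often missed there, so a list without calls may still hold changes of that size. The share of false calls there was above the threshold of 0.05. The young livers share the fit and its estimate of spread. Since 17 genes spanned 4-fold or more among them and 306 among the vehicle livers, the p-values may understate the spread of the controls. With only the old livers in the fit 98 genes were called, and 43 of 62 named calls held. Differences between tissues were tested as interaction terms over 20 libraries. A floor of 3 counts and exact 95% intervals were used where a group held few counts. Depth was 223957 to 891116 counts per liver.

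The genes named were the 12 largest called rises and falls without overlap, up to 4 called members of each of 31 lists (or the 2 most abundant where none was called), the deleted gene with the BCL-2 family and Cdkn genes, the 8 genes most variable among vehicle livers, and the 3 most certain tissue differences of each sign. Other genes, and the list members beyond these, were named after their values were seen. The comparison and the lists were chosen with earlier results of these data known. DESeq2 1.42.0, scalings, filters, the fit of old livers alone, a replicate block and leaving out each library were tried as alternatives. Replicate numbers were not taken to pair the livers.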

Additional observations from a re-analysis of the deposited data

Results flagged for a closer look

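In 6 of the named genes 1 of the 4 young livers stood apart from the others by Dixon's 95% criterion. Chance meets this in about 1 of 20 groups, so over all named genes some such flags would arise by chance. The liver apart was high for Cidec (4.61 CPM against 1.49 to 1.94), Saa2 (298 against 25.2 to 57.5), Saa1 (602 against 76.8 to 152), Lcn2 (13.4 against 0 to 1.92) and Bcl2 (11.6 against 0 to 1.54). It was low for Hfe (42.2 against 72.2 to 74.5). For Saa2, Saa1 and Lcn2 it was the same young liver, replicate 2. In raw counts the liver apart had 3 for Cidec against 1 in each other young liver. It had 6 for Bcl2 and 9 for Lcn2, each against 0 or 1 in the others, so the flags of these genes rest on few counts.

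The effect of ABT-737, on the log2 scale, differed between liver and kidney by 3.97 for Cyp4a10, 3.41 for Car3, 2.16 for Acsl1, -3.13 for Hmox1, -2.65 for Cyba and -2.80 for Sirpa. Between liver and lung it differed by 3.30 for Mcm10, -4.52 for Pcolce, -3.95 for Basp1 and -2.83 for Itga9. Each passed the interaction test in edgeR.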

How the results depend on the processing

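Of the 67 named genes called between the treated and control livers none turned direction under any alternative, and 24 kept their call without ABT-737 replicate 4, the lowest number among the single livers left out. DESeq2 called 61 of the 67, and not Gm2083, Lcn2, Dld, Nkg7, Pecam1 and Cyp17a1. In total 215 genes were called, 56 higher and 159 lower. The counts were 512 (148 higher, 364 lower) with no filter beyond 1 count, 98 (16 and 82) with only the old livers in the fit, and 47 (10 and 37) for an absolute log2 fold change over 1. Leaving out 1 library gave 44 to 529 calls, 14 to 189 higher and 30 to 340 lower. With the replicate number as a block 29 genes were called (5 higher, 24 lower) and 19 of 62 named calls held. Same-numbered livers correlated in their deviations at -0.108, 0.18 and -0.0474, and differently numbered ones at -0.287 to 0.214. With 3 livers per group these values cannot decide whether the numbers pair the livers. Liver against kidney, 25 genes differed, 70 by DESeq2, 110 with no filter, 34 with the replicate block and 3 to 100 with 1 liver left out (11 and 10 when replicate 3 or 5 of the treated livers was, 9 and 52 when replicate 4 or 5 of the controls was). Liver against lung, 5 differed, 57 by DESeq2, 91 with no filter, 31 with the replicate block and 0 to 27 with 1 liver left out.

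Some genes that were not called turned sign. Acsl5 went to -0.023 with totals without the 50 most abundant genes and to -0.000119 with 1 gene per set of identical counts, and Dbp to 0.0262 with no filter. With 1 library left out, log2 fold changes ran from -1.01 to 0.811 for Cela2a, -0.347 to 0.362 for Dbp, -0.321 to 0.651 for Cdkn1a, -0.339 to 0.435 for Mcfd2, -0.0991 to 0.875 for Clpx, -0.333 to 0.567 for Acsl5, -0.272 to 0.401 for Bnip3, -0.0615 to 0.615 for Hfe, -0.0643 to 0.729 for Tmbim4 and -0.0689 to 3.09 for Cyp2c50. The cause was not tested. A count of 3 was worth 13.1 CPM in vehicle replicate 3 and 3.51 CPM in vehicle replicate 4, so depth limits what can be said of weak genes.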
